A study of Homo sapiens with 12 samples.

Results

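FGF21, INHBE, GDF15, VEGFA, STC2, ADM2 and ANGPTL4 encode secreted factors that are known as targets of the transcription factor ATF4. These 7 genes, of 23500 listed, were chosen by that knowledge together with the measured change of such factors in HEK293T cells moved to homocysteine medium. Their values in that comparison are therefore a description, and the number of them called in it is given only beside that of all genes. RNA was sequenced from HEK293T cells, a human embryonic kidney line that carries the SV40 large T antigen, and from R1 cells, a single clone derived from HEK293T that proliferates without methionine. Each line was kept for 12 h in medium with methionine (+Met) or in medium in which its metabolic precursor homocysteine replaced it (−Met+Hcy), with 3 libraries in each of the 4 groups. Both media shared the same base with dialyzed serum, glutamine, cysteine and vitamin B12. For the R1 libraries, the titles name R1 but the cell line field names HEK293T, and they were taken as R1. Nothing in the labels says that libraries of a group came from separate cultures, so p-values measure the spread between these libraries, which may be technical.

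When amino acids run short, the kinase GCN2 phosphorylates the initiation factor eIF2, general translation falls and translation of ATF4 rises. ATF4, often in a pair with a C/EBP protein, binds composite C/EBP-ATF elements in genes of amino acid supply and in genes of several secreted factors. FGF21, GDF15 and INHBE products act at a distance on metabolism and appetite and are best known from liver and stressed tissue, whereas VEGFA, ADM2 and ANGPTL4 act mainly on vessels and lipid handling and STC2 acts on growth factor processing.

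The 12 libraries held 12664158 to 18771349 counts. Levels are given as counts, as estimated by the authors, and as CPM, the count scaled to a common library total. Fold changes come from a model of all 12 libraries with TMM scaling, in which a gene was called at an adjusted p-value under 0.05 and an absolute log2 fold change over 1. TMM moved the scale by 0.294 (log2) between the media in HEK293T and by 0.353 between the lines in +Met, relative to column sums, so that a plain ratio of CPM in those comparisons lies above the fitted fold change. After TMM the median log2 fold change of all 17162 genes tested was 0.0342 in HEK293T, -0.0152 in R1 and 0.0191 between the lines in +Met. The third R1 −Met+Hcy library stood apart. Its chi-square per gene against the other libraries of its group was 214 and 245, against 7.37 to 94.6 for all other pairs within groups, and its difference from its group had a rank correlation of -0.744 with GC content across genes (-0.338 to 0.73 in the other libraries). Members' values in R1 in −Met+Hcy, and counts of genes called, are therefore also given without it.

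All 7 members were present among the listed genes, and all 7 passed the filter of a summed count of at least 10. FGF21 and ADM2 passed only through HEK293T in −Met+Hcy, with 0 and 5 counts in all other libraries together. On GRCh38, FGF21 (ENSG00000105550) lies on the plus strand of chromosome 19 from 48755524 to 48758333 with 4 exons. Its start lies 133 bases from that of FUT1, a fucosyltransferase gene on the opposite strand, and the 250 bases before the FGF21 start were searched for the C/EBP-ATF element TGATGNAAT on both strands. The element was found on the minus strand, 55 to 47 bases before the FGF21 start (chr19:48755469-48755477), where it reads TGATGCAAT. The pattern TGATGNAAT, with any base at N and on either strand, occurred in 312 of 35116 RefSeq promoters of the same 250-base length (0.888%). The sequences below are from RefSeq (GRCh38.p14). They are shown for FGF21, STC2 and ADM2, the members with the higher level in HEK293T in −Met+Hcy whose promoter was in the table, and they leave out annotated exons. The element is in capitals as it appears on the printed strand of FGF21 (chr19:48755391-48755523, plus strand). STC2 (chr5:173328448-173328664, minus strand) and ADM2 (chr22:50481293-50481542, plus strand) held no match in their 250 bases.
FGF21: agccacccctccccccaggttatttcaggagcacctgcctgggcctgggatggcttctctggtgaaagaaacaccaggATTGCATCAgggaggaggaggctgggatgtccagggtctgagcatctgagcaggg
STC2: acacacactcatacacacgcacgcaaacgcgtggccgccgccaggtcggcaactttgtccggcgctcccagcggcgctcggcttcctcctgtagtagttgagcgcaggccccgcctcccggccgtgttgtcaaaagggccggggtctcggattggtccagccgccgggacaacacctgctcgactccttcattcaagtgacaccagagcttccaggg
ADM2: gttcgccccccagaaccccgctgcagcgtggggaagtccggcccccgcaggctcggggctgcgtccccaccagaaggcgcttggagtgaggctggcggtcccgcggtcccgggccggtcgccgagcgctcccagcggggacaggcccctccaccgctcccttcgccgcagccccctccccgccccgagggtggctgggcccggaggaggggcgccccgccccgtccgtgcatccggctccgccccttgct
Promoters of 5 of the 7 members matched by symbol. TGATGNAA, the first 8 letters of the element, was found in FGF21 alone of these 5 and in 3.14% of all promoters, and it overlaps the longer motif. The cAMP response element TGACGTCA was found in 0 of the 5 and in 1.65% of all promoters. The core of the hypoxia response element, ACGTG, was found in ANGPTL4 alone of the 5 and in 18.5% of all promoters. A match describes the letters of these windows and no binding was measured.

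INHBE (ENSG00000139269) lies on chromosome 12 from 57452323 to 57459280, GDF15 (ENSG00000130513) on chromosome 19 from 18374731 to 18389176, VEGFA (ENSG00000112715) on chromosome 6 from 43770184 to 43786487 and ANGPTL4 (ENSG00000167772) on chromosome 19 from 8363289 to 8374370, all on the plus strand. STC2 (ENSG00000113739) lies on the minus strand of chromosome 5 from 173314723 to 173328447, and ADM2 (ENSG00000128165) on the plus strand of chromosome 22 from 50481543 to 50486440. Exons of INHBE and VEGFA overlap a long non-coding RNA on the opposite strand, and those of ADM2 overlap SBF1. Whether the counting used the strand is not given in the sources used here, so that reads of these partners may be shared. SBF1 had 908 to 7632 counts in the R1 libraries, in all of which ADM2 had 0.

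FGF21, a hormone that signals through FGF receptors with the co-receptor β-klotho, had 0 counts in all 3 HEK293T libraries in +Met. It had 82, 106 and 122 counts in −Met+Hcy, which is 6.67 ± 1.2 CPM (SD, n = 3). In R1 cells it had 0 counts in each of the 6 libraries. FGF21 reads were thus seen in HEK293T cells in −Met+Hcy and in no other group, and 3 counts over a group, the limit that a count of 0 allows, correspond to 0.0621 to 0.0645 CPM. Set against 3 counts per library, the mean in HEK293T in −Met+Hcy was at least 34.7-fold higher than in HEK293T in +Met. It was also at least 34.7-fold higher than in R1 in −Met+Hcy (32-fold without the third R1 −Met+Hcy library). In bulk RNA, fewer cells that express a gene and less RNA of it per cell cannot be told apart.

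INHBE encodes the inhibin βE subunit, which forms activin E, a TGF-β family ligand made mainly by hepatocytes. Its counts were 3, 1 and 1 in HEK293T in +Met and 93, 113 and 82 in −Met+Hcy. In R1 they were 2, 0 and 0 in +Met and 3, 0 and 0 in −Met+Hcy. The 3 HEK293T libraries in −Met+Hcy stood at 6.19 ± 0.686 CPM (SD, n = 3), and no other library passed 0.219 CPM. Per unit of depth, the summed count in HEK293T was 58.1 times as high in −Met+Hcy as in +Met, with an exact binomial 95% interval of 24.6 to 180.0 that covers counting error only. Without the first +Met library, which held 3 of its 5 counts, it was 95.9 times as high (26.3 to 795), and 47.4 to 61.8 times without any other of these libraries. In −Met+Hcy it was 98.5 times as high in HEK293T as in R1 (33.4 to 480.0), and 59.7 times (20.2 to 291) without the third R1 −Met+Hcy library.

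GDF15, a TGF-β family hormone that acts on the hindbrain through its receptor GFRAL, was barely detected. Its counts were 0, 0 and 0 in HEK293T in +Met, 6, 0 and 2 in −Met+Hcy, 3, 0 and 2 in R1 in +Met and 0, 6 and 0 in R1 in −Met+Hcy. The groups overlapped in every comparison between them, and no library passed 0.421 CPM. No fold is given because the median count of each group was at or under 3. A difference of GDF15 between the groups was not detectable at this depth.

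ADM2 encodes intermedin, a vasodilator peptide of the calcitonin family. It had 1, 3 and 1 counts in HEK293T in +Met against 57, 49 and 29 in −Met+Hcy. Like FGF21, it had 0 counts in all 6 R1 libraries. The level in HEK293T in −Met+Hcy was 2.93 ± 1.05 CPM (SD, n = 3), and the summed count per unit of depth was 27.3 times that in +Met (exact binomial 95% interval 11.4 to 85.3, counting error only). Without the second +Met library, which held 3 of its 5 counts, it was 46.9 times (12.7 to 392), and 22.2 to 31.8 times without any other of these libraries. Against 3 counts per library, it was at least 15.2-fold higher in HEK293T than in R1 in −Met+Hcy (14.1-fold without the third R1 −Met+Hcy library). A mean of at least 1 CPM with a count in every HEK293T −Met+Hcy library, together with 0 counts in all R1 libraries, was seen in 9 of 13777 genes (0.0653%). FGF21 and ADM2 are 2 of these 9. The condition uses the HEK293T −Met+Hcy libraries behind the choice of the members, so that nothing is read from this share. In HEK293T in +Met the summed counts of the 9 ran from 0 (FGF21) to 364 (PPP1R14A), with 5 for ADM2.

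STC2 encodes stanniocalcin 2, a glycoprotein that inhibits the protease PAPP-A. Its counts in HEK293T were 520, 510 and 605 in +Met and 2932, 2818 and 1913 in −Met+Hcy, or 34.8 ± 2.25 and 166 ± 39.9 CPM (SD, n = 3). In R1 they were 512, 379 and 404 in +Met (27.4 ± 6.0 CPM) and 468, 641 and 146 in −Met+Hcy (28.0 ± 18.0 CPM). The 3 HEK293T libraries in −Met+Hcy lay above all 9 others, and the lowest value, 7.78 CPM, was that of the R1 library that stood apart. The other R1 libraries in −Met+Hcy stood at 34.1 and 42.2 CPM, above the R1 libraries in +Met (20.6 to 31.9 CPM). The fitted log2 fold change between the media in HEK293T was 1.95 (SE 0.413), a 3.85-fold higher level. By its mean, STC2 was the most abundant member in each of the 4 groups.

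VEGFA, the main growth factor of blood vessel endothelium, had 237, 252 and 211 counts in HEK293T in +Met against 651, 692 and 557 in −Met+Hcy. In R1 it had 285, 223 and 174 counts in +Met against 283, 284 and 156 in −Met+Hcy. The groups stood at 15 ± 2.18, 41 ± 4.51, 14.1 ± 2.23 and 15.9 ± 6.63 CPM in that order (SD, n = 3). The HEK293T libraries in −Met+Hcy again lay above all others, and the other 3 groups overlapped one another. In R1 in −Met+Hcy the library that stood apart was again the lowest, at 8.31 CPM against 20.6 and 18.7 in the others. The fitted log2 fold change in HEK293T was 1.16 (SE 0.258), a 2.23-fold higher level.

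ANGPTL4, an inhibitor of lipoprotein lipase, was near the detection limit. It had 0, 1 and 1 counts in HEK293T in +Met against 10, 1 and 2 in −Met+Hcy. In R1 it had 4, 12 and 5 counts in +Met against 5, 7 and 0 in −Met+Hcy. The media overlapped in both lines, and the R1 libraries in +Met all lay above the HEK293T libraries in +Met.

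**Figure D1:**
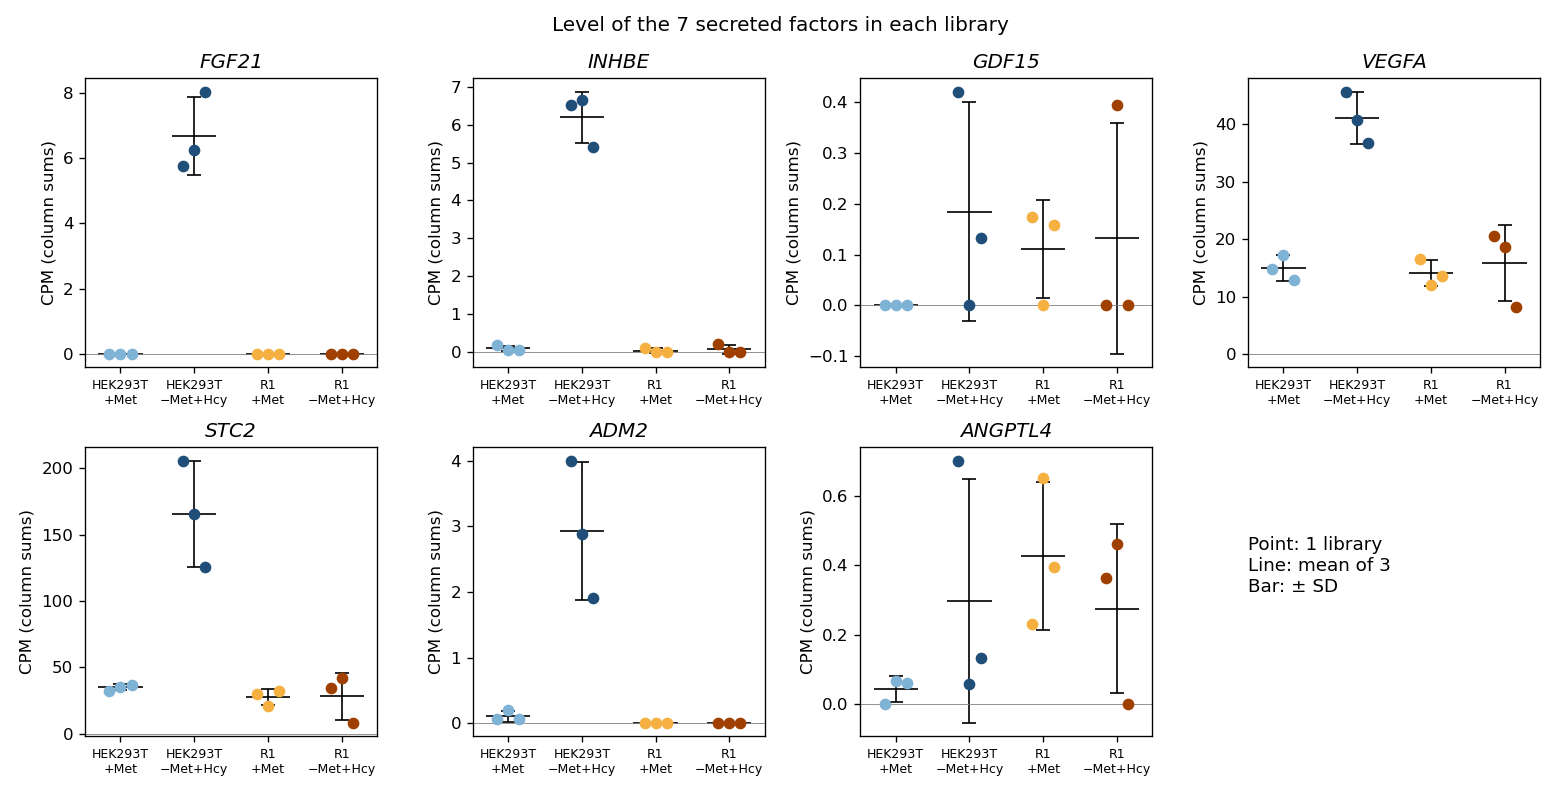
Level of each member in each of the 12 libraries, in CPM of the library total on a linear axis, with 1 point per library, a line at the mean of 3 and a bar for ± SD. FGF21, INHBE, ADM2, STC2 and VEGFA are highest in the 3 HEK293T libraries in −Met+Hcy, while no GDF15 point passes 0.421 CPM and the HEK293T groups overlap in ANGPTL4.

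In HEK293T, 5 of the 7 members (FGF21, INHBE, VEGFA, STC2 and ADM2) were called higher in −Met+Hcy and 0 lower, beside 4.63% of all genes tested called in either direction, 3.04% higher and 1.59% lower. This count restates the choice of the members, and so do the counts under other fits of the same comparison. The same 5 had all 3 libraries above those in +Met, which on column sums held for 38.6% of all genes and on TMM-scaled values for 24.8%. The remaining members, GDF15 and ANGPTL4, summed to 8 and 13 counts over the 3 libraries in −Met+Hcy and to 0 and 2 in +Met. Leaving out 1 of the HEK293T libraries in turn left 2 or 3 members called. FGF21 and INHBE were called each time, ADM2 only without the second +Met library, STC2 only without the third −Met+Hcy library and VEGFA in none. Without the third R1 −Met+Hcy library the 5 remained called, beside 10.3% of all genes, and DESeq2 called the same 5, beside 6.74%.

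The R1 libraries did not enter the choice of the members by their change in HEK293T, and the medium comparison in R1 was tested. FGF21 and ADM2 had 0 counts in all R1 libraries and entered the fit through HEK293T in −Met+Hcy alone, so that they could not be called. With edgeR, 0 of the other 5 members were called, beside 0.00583% of all genes, all of it higher (1 gene, MAT2A, a SAM synthetase subunit named here after its value was seen) and 0% lower. Before adjustment, at p under 0.05, 0 members passed in either direction, and DESeq2 also called 0, beside 0.163% of all genes. No share of all genes is given for unadjusted p-values, here or for the lists below, so nothing is read from such counts. In VEGFA the log2 fold change was 0.18 (SE 0.257, adjusted p = 0.808), with a 95% interval of -0.38 to 0.74. In STC2 it was 0.02 (SE 0.403, adjusted p = 0.993), with an interval of -0.85 to 0.90. In ANGPTL4 it was -0.68 (SE 1.15, adjusted p = 0.839), with an interval of -3.19 to 1.83 that spans changes of both directions. Without the third −Met+Hcy library these values were 0.44 (SE 0.161, adjusted p = 0.595), 0.44 (SE 0.203, adjusted p = 0.706) and -0.10 (SE 0.931, adjusted p = 1), and 0 members were called, beside 0.0176% of all genes. VEGFA and STC2 then passed an unadjusted p-value of 0.05. FGF21, INHBE, GDF15 and ADM2 had too few counts in R1 for a fold. No member had all libraries of 1 medium above those of the other in R1, which held for 5.22% of all genes upwards and 4.87% downwards. Without the third −Met+Hcy library, VEGFA and STC2 lay above in both remaining libraries, as did 14.2% of all genes, and 0 members lay below, against 6.79% of all genes.

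R1 was then set against HEK293T in +Met, a comparison that shares the HEK293T +Met libraries with the one behind the choice of the members. With edgeR, 0 of the 7 members were called, beside 7.66% of all genes, 4.71% higher in R1 and 2.95% lower. FGF21, at 0 counts in both groups, could not be called. INHBE, GDF15 and ADM2 had a median of at most 3 counts in both groups, too few for a fold. The count of 0 therefore bears mainly on VEGFA, STC2 and ANGPTL4. DESeq2 also called 0, beside 10.6% of all genes. In VEGFA the log2 difference, R1 minus HEK293T, was -0.44 (SE 0.258, adjusted p = 0.309, 95% interval -0.998 to 0.122), and in STC2 it was -0.71 (SE 0.404, adjusted p = 0.296, interval -1.59 to 0.17). The R1 libraries lay below the HEK293T libraries in STC2 and ADM2, where 9.15% of all genes did so, and on TMM-scaled values also in VEGFA, where 20.7% did. ANGPTL4 lay above them in all 3 R1 libraries, as did 38.1% of all genes on column sums and 22.2% on TMM-scaled values. Its summed count was 10.2 times as high in R1 per unit of depth (exact binomial 95% interval 2.49 to 89.7, counting error only), and the fitted log2 difference of 2.80 (SE 1.38) had an adjusted p of 0.224. Without the third R1 −Met+Hcy library, which takes part in the shared estimate of the spread, VEGFA (adjusted p = 0.0367) and STC2 (adjusted p = 0.0114) passed on the p-value with a fold change under the threshold. The count of members called was then 1, beside 14.3% of all genes. This was ADM2, at 5 counts against 0, which entered the fit only through its counts in HEK293T in −Met+Hcy, so that nothing is read from its p-values here.

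In −Met+Hcy, where the HEK293T libraries are those behind the choice of the members, the lines are described without a test. The 3 R1 libraries lay below the 3 HEK293T libraries in FGF21, INHBE, VEGFA, STC2 and ADM2, as they did in 17.8% of all genes on column sums and 18.9% on TMM-scaled values. Without the third R1 −Met+Hcy library the same 5 lay below, as did 23.4% of all genes on column sums. The log2 difference, R1 minus HEK293T, was -1.42 (SE 0.26) in VEGFA and -2.63 (SE 0.424) in STC2. The response to the medium, R1 minus HEK293T, differed by -0.98 (SE 0.363) in VEGFA and by -1.92 (SE 0.573) in STC2 on the log2 scale. Without the third R1 −Met+Hcy library the difference between the lines was -1.16 (SE 0.164) and -2.21 (SE 0.218), and that of the responses -0.72 (SE 0.216) and -1.50 (SE 0.276). ANGPTL4 and GDF15 overlapped between the lines.

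**Figure D2:**
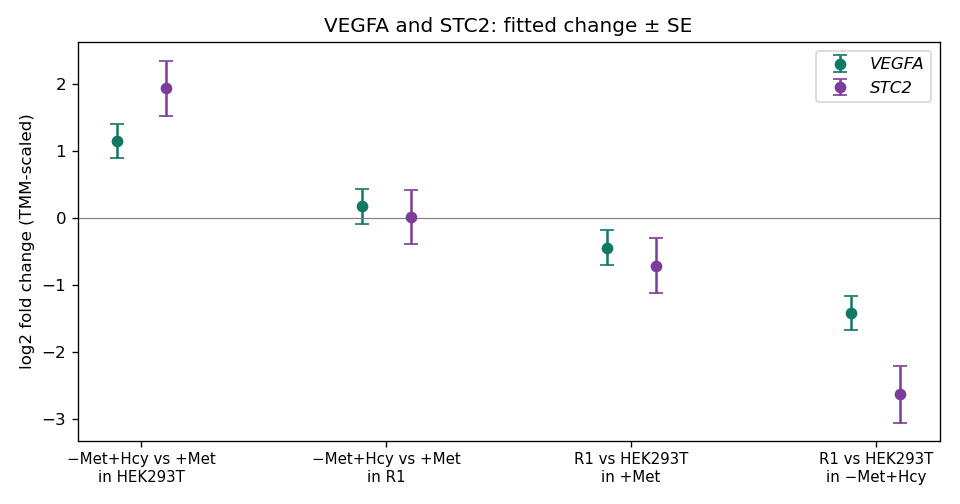
Fitted log2 fold change ± SE of VEGFA and STC2, on TMM-scaled counts, in the 4 comparisons named on the horizontal axis. The change between the media is 1.16 and 1.95 in HEK293T and 0.18 and 0.02 in R1, and R1 lies below HEK293T by more in −Met+Hcy than in +Met.

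Levels of different members can be compared only per length of the transcript. In HEK293T in −Met+Hcy, the order in CPM per kilobase was STC2 (38.9 ± 9.37), VEGFA (11.4 ± 1.25), FGF21 (4.95 ± 0.892), INHBE (2.51 ± 0.279), ADM2 (0.695 ± 0.248), ANGPTL4 (0.159 ± 0.188) and GDF15 (0.153 ± 0.179) (SD, n = 3). Each of the first 5 differed from its neighbour by more than their SDs, and ANGPTL4 and GDF15 did not. In HEK293T in +Met, STC2 (8.19 ± 0.528) and VEGFA (4.16 ± 0.604) kept the top of the order and the other 5 lay at or under 0.043 CPM per kilobase. In R1 in +Met, STC2 stood at 6.44 ± 1.41 and VEGFA at 3.91 ± 0.618, followed by ANGPTL4 at 0.228 ± 0.113. In R1 in −Met+Hcy, STC2 (6.59 ± 4.23) and VEGFA (4.4 ± 1.84) differed by less than their SDs, whereas without the third library they stood at 8.97 ± 1.35 and 5.45 ± 0.375 (SD, n = 2).

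Members were also compared by the shape of their profile, as the root mean square difference in log2 CPM (prior count 2), centred on each gene's mean over the 12 libraries. Among the members, the profiles most alike were FGF21 and INHBE (0.577), VEGFA and STC2 (0.599) and INHBE and ADM2 (0.668), and the least alike were FGF21 and ANGPTL4 (2.6). Of 14574 other genes with at least 1 CPM in a group, the nearest to FGF21 were H3C10 (0.844), a histone gene with near-identical copies whose reads the counting could split, and FUT1 (0.852). DSC1 (0.721) and KRTAP19-1 (0.814) were nearest to INHBE, and ETV7 (0.525) and SMPX (0.538) to ADM2. SLC35E1 (0.187) and NSMCE3 (0.19) were nearest to VEGFA. ZNF574 (0.258) and SLC3A2 (0.33), the heavy chain of several amino acid exchangers, were nearest to STC2. For the 2 members with few counts everywhere the nearest profiles were OTUD7B (0.463) and SOX9 (0.464) for GDF15 and TMCO4 (0.457) and TRIM66 (0.459) for ANGPTL4. The libraries share depth and treatment, and these values describe likeness only.

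FUT1, the neighbour of FGF21 in the genome and second nearest to it in profile, had 1, 0 and 1 counts in HEK293T in +Met against 34, 61 and 31 in −Met+Hcy. In R1 it had 0, 0 and 1 counts in +Met against 0, 3 and 0 in −Met+Hcy. Its summed count per unit of depth in HEK293T was 63.6 times as high in −Met+Hcy (exact binomial 95% interval 17.2 to 531, counting error only). INHBC, the gene of the related βC subunit, ends 260 bases before the annotated start of INHBE on the same strand and 3244 bases before that of its canonical transcript. It had 0, 1 and 0 counts in HEK293T in +Met against 17, 22 and 13 in −Met+Hcy, 52.5 times as high per unit of depth (9.01 to 2110). In R1 it had 2, 4 and 3 counts in +Met against 0, 9 and 0 in −Met+Hcy. Both neighbours were thus highest in the libraries in which FGF21 and INHBE were highest. The neighbours were looked at after the likeness of FUT1 had been seen. Of the 14 genes on either side of the members, 13 were tested. In HEK293T in −Met+Hcy, 1 was called higher (FUT1), beside 3.04% of all genes, and 0 lower, and 0 were called in R1. FUT1 passed the filter only through HEK293T in −Met+Hcy and was first seen by its likeness to FGF21. Nothing is therefore read from its call. In the annotation no exon of FUT1 overlaps one of FGF21, nor one of INHBC one of INHBE.

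**Figure D3:**
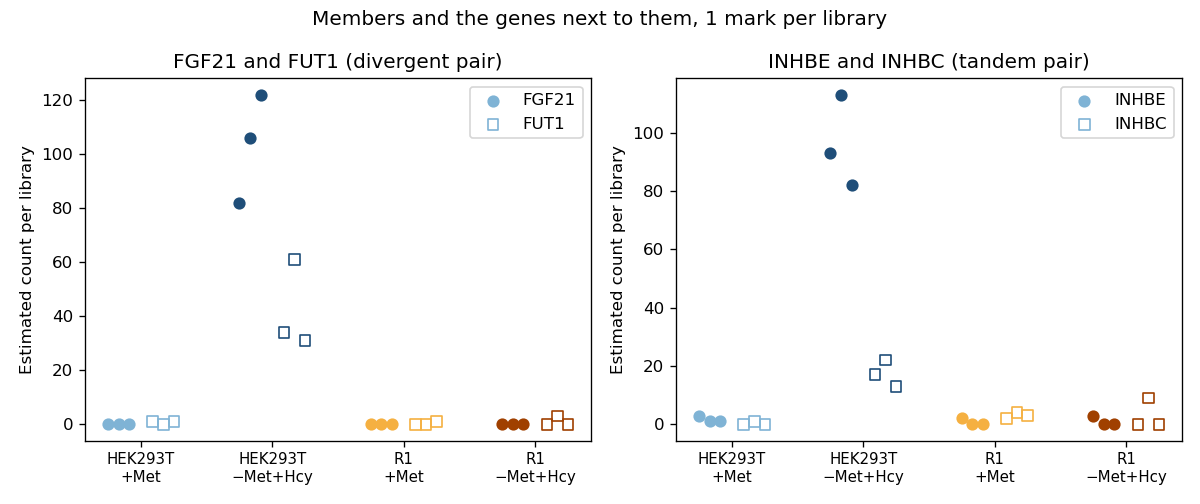
Estimated counts in each library, on linear axes, of FGF21 and its divergent neighbour FUT1 and of INHBE and its tandem neighbour INHBC, with filled circles for the members and open squares for the neighbours. In HEK293T in −Met+Hcy FGF21 reaches 82 to 122 counts with FUT1 at 31 to 61, and INHBE 82 to 113 with INHBC at 13 to 22, while no other library of these 4 genes passes 9 counts.

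Calls in the lists below stand beside the shares of all genes called by edgeR. Between the media in HEK293T these were 3.04% higher and 1.59% lower, and in R1 0.00583% in either direction. Between the lines in +Met they were 4.71% higher and 2.95% lower in R1. Of 20 receptors and co-receptors of the members, 17 were tested, and 0 were called between the media in HEK293T or in R1. Before adjustment, at p under 0.05, 4 were higher and 0 lower in HEK293T, and 2 were higher and 1 lower in R1, and DESeq2 called 0 in both. Of the FGF receptors, FGFR1 (53.3 CPM), FGFR2 (10.1 CPM), FGFR3 (99.8 CPM) and FGFR4 (47.1 CPM) were present in HEK293T in +Met. KLB, the co-receptor of FGF21, had 2 to 4 counts there, 2 to 5 in −Met+Hcy and 0 to 4 in R1. The related co-receptor KL had 0 to 2 counts in all libraries. GFRAL, the receptor of GDF15, had 0 counts in all 12 libraries. Its co-receptor RET stood at 3.16 CPM in HEK293T and 14.4 CPM in R1 in +Met. For activins, ACVR1B, ACVR2A and ACVR2B were present in HEK293T in +Met (19.3, 18.9 and 11.3 CPM), and ACVR1C stood at 0.466 CPM. For ADM2, CALCRL stood at 2.99 CPM in HEK293T and 3.09 CPM in R1 in +Met and RAMP1 at 6.35 and 15.6 CPM, while RAMP3 had 0 counts throughout.

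Between the lines in +Met, 5 of these 17 were called higher in R1 and 0 lower, beside the 4.71% of all genes called higher. The largest was NRP1, a VEGFA co-receptor, at 8.5 CPM in HEK293T and 81.9 CPM in R1 (log2 fold change 2.91, adjusted p = 1.5e-05). The VEGFA receptor FLT1 stood at 1.68 and 12.7 CPM (2.55, adjusted p = 0.00444), and the log2 fold change was 1.83 for RET (adjusted p = 0.00668), 1.52 for FGFR2 (adjusted p = 0.00198) and 1.81 for RAMP2 (adjusted p = 0.0249). KDR, the main signalling receptor of VEGFA, had 0 to 4 counts in HEK293T and 15 to 19 in R1 in +Met (2.60, adjusted p = 0.112), and it was called higher in R1 by DESeq2 and by edgeR without the third R1 −Met+Hcy library, each of which called 6 of the 17. NRP2 (-0.21) was not called, and VEGFA itself lay at -0.44 in the same comparison.

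Of 19 relatives of the members by family, 17 were tested. In HEK293T in −Met+Hcy, 1 was called higher and 0 lower, the lymphatic growth factor VEGFC, which went from 35, 32 and 40 to 77, 106 and 94 counts (log2 fold change 1.09, adjusted p = 0.0478). DESeq2 called INHBC as well, and edgeR without the third R1 −Met+Hcy library called 4 higher (VEGFC, INHBC, MSTN and PGF). In R1, 0 were called by edgeR, 2 were higher at p under 0.05 before adjustment, and DESeq2 called MSTN. MSTN had 0, 0 and 2 counts in R1 in +Met against 13, 7 and 64 in −Met+Hcy, and without the third library 0 were called. Between the lines in +Met, VEGFB (1.16, adjusted p = 0.0361) and PGF (2.47, adjusted p = 0.0133), which share receptors with VEGFA, were higher in R1, and MSTN (-3.98, adjusted p = 0.0459) was lower. STC1, the paralogue of STC2, had 0 to 2 counts in HEK293T and 19 to 61 in R1 in +Met (4.51, adjusted p = 0.055), and it was called by DESeq2 and without that library, where INHBB was called too. Of 8 binding partners and targets of the members, 6 were tested and 0 were called between the media in either line. Before adjustment, at p under 0.05, 1 was higher in HEK293T and 1 lower in R1 (PAPPA2 in both), and DESeq2 called 0. PAPPA2 was, without the third R1 −Met+Hcy library, called higher in HEK293T in −Met+Hcy, at 0, 0 and 1 counts against 8, 15 and 13. R1 had 4, 0 and 1 counts of it in +Met and 0, 0 and 0 in −Met+Hcy. PAPPA2 passed the filter only through HEK293T in −Met+Hcy, so that nothing is read from its p-values. LPL, the lipase that ANGPTL4 inhibits, was the 1 gene of this list called between the lines in +Met (7, 1 and 0 counts in HEK293T and 26, 56 and 27 in R1, log2 fold change 3.31, adjusted p = 0.0333), and FST was called too without that library.

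The list of ATF4 and factors of its arm held 12 genes, all tested, and it was drawn up with results of these data known. In HEK293T in −Met+Hcy, 7 were called higher and 0 lower beside 3.04% of all genes, and the median log2 fold change of the 12 was 1.48 against 0.0342 over all genes. CHAC1, a glutathione-degrading enzyme, went from 111, 80 and 79 to 2431, 2976 and 3008 counts (log2 fold change 4.68, SE 0.503), and the others called were NUPR1 (4.15), SESN2 (2.73), ATF3 (2.45), CEBPG (2.00), DDIT3 (1.39) and ASNS (1.32). DESeq2 called 8, with CEBPB, and edgeR without the third R1 −Met+Hcy library 9, with CEBPB and TRIB3. The change of ATF4 RNA itself was 0.34 (adjusted p = 0.265) and that of ATF5 -0.15 (adjusted p = 0.913). In R1, 0 of the 12 were called by edgeR. At p under 0.05 before adjustment 6 were higher and 0 lower, with no share of all genes to set beside them. Without the third −Met+Hcy library these counts were 8 and 0. DESeq2 called CHAC1, as did edgeR without the third −Met+Hcy library. The median in R1 was 0.435 against -0.0152 over all genes, with CHAC1 at 74, 75 and 55 counts in +Met against 338, 410 and 78 in −Met+Hcy. The largest value in R1 was that of NUPR1 (4.47, SE 0.964, adjusted p = 0.622). It had 0, 0 and 1 counts in +Met against 8, 4 and 18 in −Met+Hcy. The members that could be fitted in R1, VEGFA, STC2 and ANGPTL4, lay at 0.18, 0.02 and -0.68 in that comparison. Without the third −Met+Hcy library they lay at 0.44, 0.44 and -0.10, whereas the median of 0.435 is from the fit with all libraries. In +Met, 4 of the 12 were called lower in R1 than in HEK293T and 0 higher, beside 2.95% of all genes. These were NUPR1 (-4.79, adjusted p = 0.00867), ATF3 (-1.38, adjusted p = 0.00982), ASNS (-1.33, adjusted p = 0.00706) and CEBPG (-1.11, adjusted p = 0.00255), and CEBPB was called lower too without the third R1 −Met+Hcy library.

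**Figure D4:**
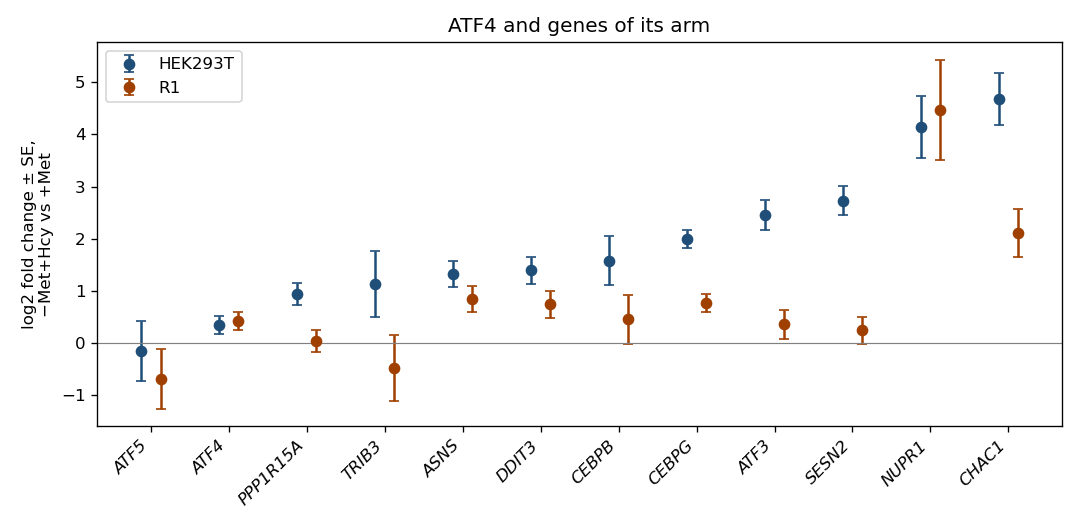
Fitted log2 fold change ± SE between −Met+Hcy and +Met of ATF4 and 11 genes of its arm, in HEK293T and in R1, ordered by the value in HEK293T. In HEK293T 7 genes were called higher, from ASNS at 1.32 to CHAC1 at 4.68, and in R1 none was called by edgeR.

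VEGFA and ANGPTL4 also respond to low oxygen, ANGPTL4 and FGF21 to PPAR receptors, and GDF15 to p53. Of 12 genes of the hypoxia response, 11 were tested. In HEK293T in −Met+Hcy, 0 were called higher and 1 lower (LDHA, -1.17, adjusted p = 0.00476), and DESeq2 called the same 1. At p under 0.05 before adjustment, 0 were higher and 3 lower there. In R1, 0 were called, 0 passed unadjusted and DESeq2 called 0. Without the third R1 −Met+Hcy library, 2 were higher and 4 lower in HEK293T before adjustment, and LDHA was lower in R1. Between the lines, NDRG1 (-1.38, adjusted p = 0.00129) and PGK1 (-1.11, adjusted p = 0.0251) were lower in R1. Of 8 PPAR targets, 7 were tested. PDK4 was the 1 called between the media in HEK293T (1, 4 and 2 counts in +Met against 17, 32 and 21 in −Met+Hcy, log2 fold change 2.96, adjusted p = 0.0206), and 0 were called in R1, with 0 at p under 0.05 before adjustment and 0 by DESeq2. In +Met, PDK4 (3.10), CPT2 (1.51) and CPT1A (1.29) were among the genes of this list called higher in R1. Of 8 p53 targets, 0 were called between the media in either line by edgeR or DESeq2, and 1, FAS in R1, passed unadjusted. The authors state that the large T antigen of HEK293T cells inactivates p53, so that this list cannot decide on a part of p53. CDKN1A was called higher in HEK293T in −Met+Hcy without the third R1 −Met+Hcy library. TP53I3 (2.60, adjusted p = 0.00114) was higher in R1 in +Met, and so was CDKN1A by DESeq2 and without that library. Of 8 genes of the unfolded protein response of the endoplasmic reticulum, another stress pathway upstream of ATF4, 0 were called in any of the 3 comparisons by edgeR or DESeq2. Before adjustment, at p under 0.05, 3 of these were higher in HEK293T in −Met+Hcy, with XBP1 at 0.87 (adjusted p = 0.00673) and HSPA5 at 0.51 (adjusted p = 0.0677), 0 passed in R1, and 3 were higher and 1 lower in R1 than in HEK293T in +Met. Without the third R1 −Met+Hcy library, CHAC1 was the 1 gene called between the media in R1 among the lists of receptors, relatives, binding partners, ATF4, hypoxia, PPAR, p53 and the unfolded protein response.

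All 7 markers of HEK293T cells had counts in every group, with a summed level of 486 to 874 CPM in the HEK293T libraries (the −Met+Hcy libraries at or under 605) and 558 to 1050 CPM in the R1 libraries (641 to 1050 without the third −Met+Hcy library). VIM made up most of this sum, and it was called lower in HEK293T in −Met+Hcy (-1.35, adjusted p = 0.00323). In +Met, PAX2 (3.22, adjusted p = 0.00255), LHX1 (2.37, adjusted p = 0.00609) and KRT8 (1.31, adjusted p = 0.00901) were called higher in R1 and NEFM (-1.49, adjusted p = 0.0167) lower. PAX2 and LHX1 were low in HEK293T in +Met, at 0.46 and 0.55 CPM, against 5.64 and 3.67 CPM in R1. Of 8 markers of liver cells, in which FGF21 and INHBE are best known, APOB had 0 counts in all libraries and the summed level was at most 1.1 CPM in any library. Of 6 markers of other cell types, the summed level in HEK293T was 19.2 to 25.8 CPM with methionine against 31.0 to 56.6 with homocysteine, and in R1 43.1 to 68.1 against 23.1 to 87.6 (73.6 to 87.6 without the third library). It came mainly from the collagen genes COL1A1 and COL3A1, with PTPRC at 0 to 14 counts, PECAM1 at 0 to 6 and HBB at 0 to 4. CD3E had 0 counts in +Met in both lines, 4, 5 and 4 in HEK293T in −Met+Hcy and 2, 1 and 0 in R1 in −Met+Hcy. Its adjusted p in HEK293T was 0.119, and it was called there without the third R1 −Met+Hcy library. CD3E passed the filter only through HEK293T in −Met+Hcy, so that nothing is read from these results. COL1A1 was higher in R1 in +Met (1.40, adjusted p = 0.028). The part of these genes in the members' levels was not tested.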

How the data were processed

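RNA sequencing of 12 libraries was analysed, 3 in each of 4 groups taken from the labels. The authors quantified reads with kallisto 0.48.0 against GRCh38, summed transcript-level estimated counts per Ensembl gene and deposited them as whole numbers that are not scaled for depth. A library total of 12664158 to 18771349 counts lies behind each value, and intervals and limits from counts cover counting error only.

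Genes with a summed count under 10 were excluded, which left 17162 of 23500. Counts were scaled by TMM and fitted in R 4.3.3 with edgeR 4.0.16 (quasi-likelihood, 1 mean per group, 8 residual degrees of freedom), and the Benjamini-Hochberg adjustment ran over every gene tested. Log2 fold changes, SEs and adjusted p-values in the text are from this fit unless another is named. DESeq2 1.42.0 was an alternative, beside other scalings and filters, a robust spread, the replicate number as a block, removal of the trend with GC content and each library left out. Column-sum scaling, and the GC removal together with leaving out a library, were chosen after the data were seen. The procedure was tested on simulated data.

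The members and the gene lists were chosen with earlier results of these data known. Named were all members, the 2 genes nearest to each in profile, all receptors detected and, of each list, genes past the test or at the extremes. The neighbours of the members were added later. Values of some genes of the PPAR list are not reported here. Where both groups had a median of at most 3 counts no fold is given. Positions and transcript lengths are those of GENCODE for GRCh38.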

Additional observations from a re-analysis of the deposited data

How the results depend on the processing

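The counts of members called in R1 between the media stayed at 0 under all 24 alternatives. In HEK293T 5 members were called, 2 to 5 with a library left out in turn and 4 or 5 otherwise. These counts restate the choice of the members. In the comparison of the lines in +Met, 0 were called, 0 to 1 with a library left out, and 1 (ADM2) with the GC trend removed and without the third R1 −Met+Hcy library, an alternative chosen after seeing the data. Of the fitted values, that of STC2 in R1 changed sign, to -0.081 with the replicate number as a block and to between -0.37 and 0.44 with a library left out, and that of VEGFA in R1 ran from -0.022 to 0.44 with a library left out. These values were not past the threshold in any fit. The fitted log2 fold changes of INHBE and ADM2 in HEK293T, 5.47 and 4.38, became 6.16 without the first and 5.09 without the second HEK293T +Met library. Column-sum scaling, chosen after seeing the data, moved the HEK293T change of VEGFA to 1.45 and of STC2 to 2.25. The adjusted p of STC2 between the lines in +Met ran from 0.00259 to 0.636 and that of VEGFA from 0.0105 to 0.881, always with a fold change under the threshold. ANGPTL4 could not be fitted under edgeR's filterByExpr, which excluded it.

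The numbers of all genes called moved more. In HEK293T, 794 genes were called, against 1771 with DESeq2 and 1899 with edgeR on the 6 libraries of the comparison, 1314 with column-sum scaling (1211 higher and 103 lower, against 521 and 273), 1207 on the adjusted p alone, 517 with the replicate block, 1653 with the GC trend removed and without the third R1 −Met+Hcy library, and 268 to 1763 with a library left out. Between the lines in +Met, 1315 became 2361 with DESeq2 and 2332 with edgeR on 6 libraries, 2195 with the GC trend removed and that library left out, and 594 to 2433 with a library left out. In R1, 1 became 28 with DESeq2 on all libraries, 4 with DESeq2 and 0 with edgeR on 6 libraries, 3 with the GC trend removed, 4 with that library also left out, and 0 to 3 with a library left out. The cause was not tested. The common dispersion was 0.109 with all libraries and 0.0349 without the third R1 −Met+Hcy library.

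Replicate numbers in the labels name libraries and are not said to mark a shared culture or day. The correlation of same-numbered libraries' deviations from their groups ran from -0.504 to 0.484, so the numbers were not used as pairs. With the replicate block 4 members were called in HEK293T, all of the 5 but ADM2, and 0 in the other comparisons. With counts of 0 to 12 in most libraries, GDF15 and ANGPTL4 are limited by depth, and so are FGF21, INHBE and ADM2 outside HEK293T in −Met+Hcy.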
